A study of Mus musculus with 8 samples.

Results

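The 9 genes described here encode the amyloid precursor protein (App), its 2 relatives (Aplp1 and Aplp2) and enzymes that cut them: Bace1, Adam10, and the γ-secretase genes Psen2, Psenen, Ncstn and Aph1a. They were picked by gene name, with no value in the rule, and all 9 were found among the 54532 genes of the count table. Cortical RNA came from 4 PS19 mice and 4 Adrb1+/m;PS19 mice, all 8 mo old and labelled as strain C57BL/6 (the methods name C57BL/6J for both parent lines), with 1 library per mouse. Every mouse carried the PS19 transgene, in which the promoter of the mouse prion protein gene drives human tau of the 1N4R form with the P301S change. The Adrb1+/m;PS19 mice were in addition heterozygous for the Adrb1-A187V knock-in, a change in the β1-adrenergic receptor found in families of natural short sleepers. No mouse without the tau transgene was sequenced, so an effect of tau itself cannot be read from these libraries, and no mouse carried an App transgene, so App here is the mouse gene.

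APP is a membrane protein that is cut in sequence. β-Secretase (BACE1) releases most of the outer part and leaves a stub from which γ-secretase frees amyloid-β, the peptide of Alzheimer's disease plaques, whereas α-secretase, chiefly ADAM10 in neurons, cuts inside the amyloid-β stretch and prevents its formation. γ-Secretase is a complex of a presenilin, which holds the active site, with nicastrin (Ncstn), APH-1 and PEN-2 (Psenen). APLP1 and APLP2 are also cut by secretases but lack the amyloid-β sequence. The same secretases act on many other neuronal surface proteins, among them Notch and neuregulin.

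The coding stretches below are shown because they hold the sites at which these proteins meet. They were read from the GENCODE M21 principal transcripts, 5′ to 3′ on the coding strand. In App (transcript App-201, chr16:84962779-84965735 of GRCm38, minus strand) the amyloid-β region lies in exons 14 and 15 of 16, with an intron between them. Capitals mark the codons of the first 42 residues of amyloid-β, residues 597 to 638 of 695; β-secretase cuts just before the first capital and γ-secretase near the last.
App amyloid-β region: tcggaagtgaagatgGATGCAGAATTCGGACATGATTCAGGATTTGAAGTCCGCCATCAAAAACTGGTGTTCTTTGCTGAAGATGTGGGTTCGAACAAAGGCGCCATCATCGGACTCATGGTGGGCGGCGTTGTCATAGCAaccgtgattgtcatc

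All 3 family members end in the cytoplasmic motif YENPTY, to which adaptor proteins such as X11 and Fe65 bind. Its codons, in capitals, lie in the last exon of each gene, at chr16:84955352-84955381 for App, chr7:30435311-30435340 for Aplp1 and chr9:31150892-31150921 for Aplp2, each on the minus strand.
App: aacggaTATGAGAATCCAACTTACaagttc
Aplp1: catggcTATGAGAACCCCACCTACcgcttc
Aplp2: catggtTATGAAAACCCAACCTACaaatac

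The motif is the same in the 3 proteins, but App differs from Aplp1 at 3 of the 18 bases that encode it and from Aplp2 at 3, and Aplp1 differs from Aplp2 at 2. Over the whole principal transcripts no pair of the 9 genes shared a run of 50 bases. The active-site codons of the enzymes are given in the same way, with the catalytic DTGS of BACE1 (chr9:45852897-45852920, plus strand, exon 2 of 9), the zinc-binding HEVGH of ADAM10 (chr9:70754290-70754316, plus strand, exon 9 of 16) and the GLGD of presenilin 2 (chr1:180228930-180228953, minus strand, exon 10 of 11) in capitals.
Bace1: ctggtgGACACGGGCAGTagtaac
Adam10: tttgctCATGAAGTTGGACATaacttt
Psen2: aagctcGGCCTGGGAGACttcatc

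The deposited values are read counts per gene, with totals of 14653222 to 21223754 per PS19 mouse and 16865651 to 20802158 per Adrb1+/m;PS19 mouse. Counts were scaled to a common library size with edgeR's TMM factors and are given as CPM, and the genotypes were compared with its quasi-likelihood test over the 17195 genes with enough counts, which included all 9. Libraries of a genotype differed by more than counting noise (chi-square of 4.50 to 9.20 per degree of freedom), so each mouse counts as a separate sample. Markers of cortical tissue were present in every library, with at least 4492 counts of the neuronal Rbfox3 and 16244 of the excitatory neuron gene Slc17a7. The CPM of Adrb1 averaged 36.8 ± 4.19 for PS19 and 35.02 ± 3.71 for Adrb1+/m;PS19 (SD, n = 4 each), and a gene count does not read the mutated codon, so it does not check the genotype. Of 13 marker lists, basal forebrain cholinergic neurons stood apart between the genotypes, with 7 of 8 genes past an unadjusted p of 0.05, all higher in Adrb1+/m;PS19 mice, and a summed level of 33.8 to 57.3 CPM in PS19 and 55.9 to 84.5 CPM in Adrb1+/m;PS19 mice (2-sided exact permutation test of the list score, p = 0.0286, adjusted p = 0.371 over the 13 lists). With 4 mice per genotype, 0.0286 is the smallest p that this exact permutation test can give. A single list could therefore not pass after adjustment over the 13, and the adjusted p says little. Of the other neuronal lists, cortical excitatory neurons had 3 of 8 genes past an unadjusted p of 0.05, all lower (exact permutation p = 0.0857, adjusted p = 0.557), and interneurons had 2 higher and 1 lower of 7 (exact permutation p = 0.257). Summed reactive glia genes ranged from 377.2 to 1183 CPM in PS19 and 332.4 to 1206 CPM in Adrb1+/m;PS19 mice (p = 0.914 by the same exact test). Choroid plexus genes, which mark tissue outside the cortex, summed to 25.2 to 370.4 and 28.02 to 585.1 CPM, respectively. Striatal projection neuron genes, also of tissue outside the cortex, summed to 943.5 to 1885 CPM in PS19 and 973.6 to 2113 CPM in Adrb1+/m;PS19 mice. Of these 8 genes 0 were past the threshold (exact permutation p = 0.4 for the list score). Their score ran from -0.58 in PS19 mouse m677 to 0.65 in Adrb1+/m;PS19 mouse m671. The part of these lists in the values below was not tested, beyond 1 fit with the reactive glia score as a covariate, in which none of the 9 genes had an unadjusted p-value under 0.05.

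No change of any of the 9 genes was detected in Adrb1+/m;PS19 vs. PS19 mice. At an unadjusted p-value under 0.05, 1.42% of all genes tested (245) were higher and 1.37% (236) were lower in Adrb1+/m;PS19 mice; of the 9 genes, 0 were past it in either direction. After Benjamini-Hochberg adjustment edgeR called 0 of all genes (0%), as did DESeq2 (555 genes at an unadjusted p under 0.05) and limma-voom (492), and each of the 9 had an edgeR adjusted p of 0.9996. Their values overlapped between the genotypes for 9 of 9, where 2.02% of all genes did not overlap. The median log2 fold change of the 9 was -0.03, with 3 positive and 6 negative, against a median of 0.00046 over all genes. With DESeq2 and limma-voom the number of these genes with an unadjusted p-value under 0.05 was also 0. In bulk tissue, fewer cells of a type and less RNA per cell cannot be told apart, and this holds for every level below.

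**Figure D1:**
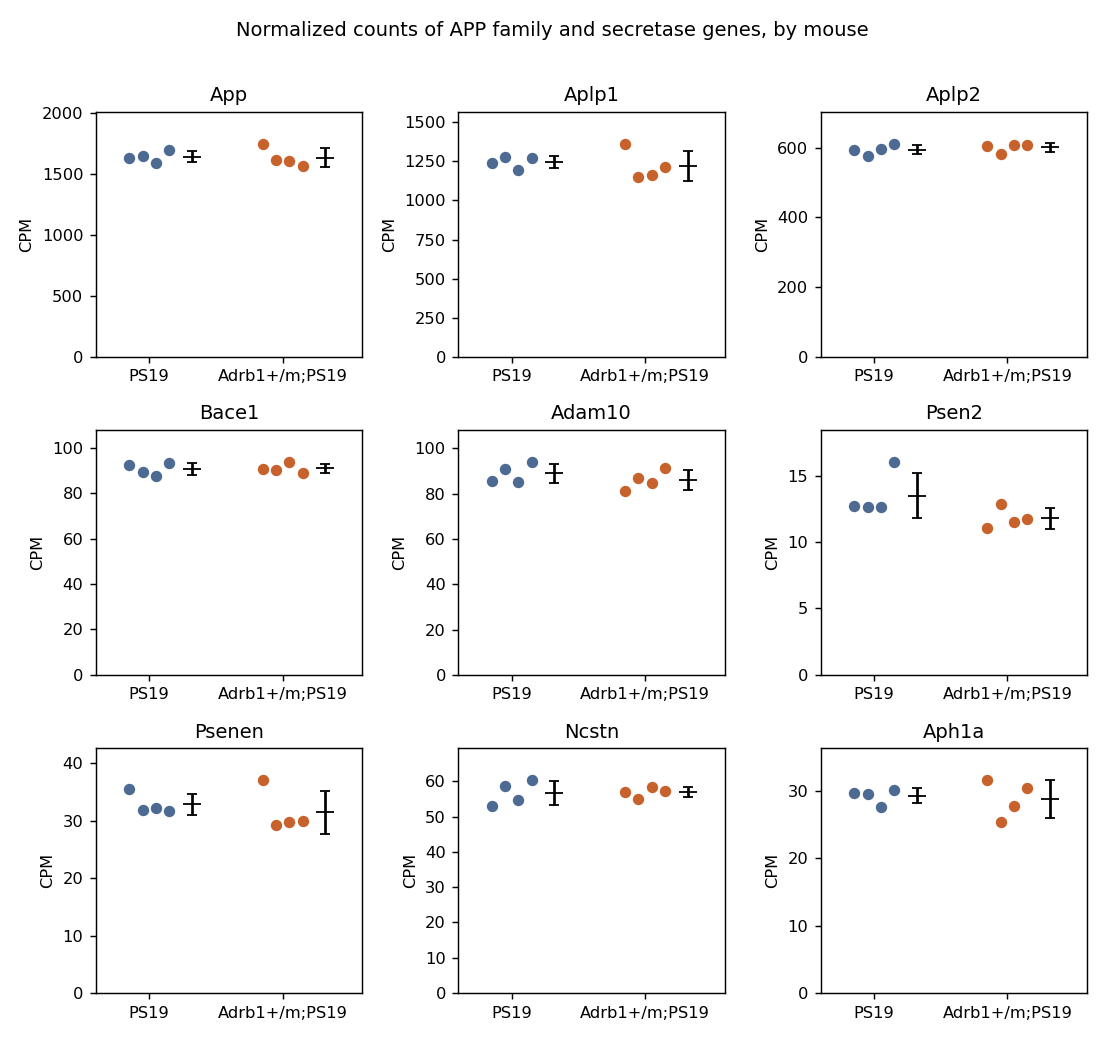
CPM of each gene (y axis, from 0) in the 4 PS19 mice (blue) and the 4 Adrb1+/m;PS19 mice (orange), 1 point per mouse, with the mean and SD of each genotype as a black bar to the right. The genotypes overlap in all 9 panels, and the points of Psen2 and Psenen are the most spread relative to their level.

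App (ENSMUSG00000022892, chr16:84949685-85173766, minus strand) was among the most abundant messages of the cortex, with a median of 0.162% of all normalized counts. Its CPM was 1627, 1648, 1589 and 1698 in PS19 mice m677, m668, m665 and m659, and 1745, 1611, 1604 and 1569 in Adrb1+/m;PS19 mice m671, m661, m660 and m658. The Adrb1+/m;PS19 group held both the highest and the lowest mouse. The means were 1641 ± 45.8 and 1632 ± 77.2 CPM (SD, n = 4 each), and the log2 fold change was -0.01 ± 0.04 (SE) (unadjusted p = 0.874, edgeR). Its 95% interval ran from -6.92% to 6.36%. At 23881 to 33655 counts per mouse, counting error was 0.588% and the coefficient of variation over the 8 mice 3.60%.

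Aplp1 (ENSMUSG00000006651, chr7:30434982-30445535), a family member found in neurons, had 1238, 1279, 1194 and 1273 CPM in the PS19 mice and 1360, 1152, 1163 and 1216 CPM in the Adrb1+/m;PS19 mice, in the same order of mice. Again the mutant group spanned the whole range, with m671 highest and m661 lowest. The log2 fold change was -0.03 ± 0.05 (SE) (unadjusted p = 0.628, edgeR). Aplp2 (ENSMUSG00000031996, chr9:31149557-31211815), which is made in most tissues, had 593.2, 577.8, 596.5 and 610.6 CPM in PS19 and 606.7, 583.1, 608.0 and 607.2 CPM in Adrb1+/m;PS19 mice. Its highest and lowest mouse differed by 1.06-fold, the narrowest range of the 9 genes. The log2 fold change was 0.02 ± 0.04 (SE), and the interval ran from -4.96% to 7.60%. The coefficient of variation of Aplp2 over the 8 mice was 2.07%, against a median of 4.95% among the 488 genes within 2-fold of its level, 1.84% of which varied less.

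Bace1 (ENSMUSG00000032086, chr9:45838580-45864399), which encodes the β-secretase, had 92.4, 89.2, 87.8 and 93.4 CPM in PS19 mice m677, m668, m665 and m659. The 4 Adrb1+/m;PS19 mice, m671, m661, m660 and m658, had 90.9, 90.2, 93.8 and 89.2 CPM. All 8 mice lay within 1.07-fold of each other. The means were 90.7 ± 2.62 and 91.0 ± 1.96 CPM (SD, n = 4 each), a log2 fold change of 0.01 ± 0.05 (SE) and an interval of -6.76% to 8.05%. The coefficient of variation, 2.36%, was no larger than the counting error of 2.49% at a mean of 1608 counts, and 1.18% of the 3887 genes within 2-fold of its level varied less. Exons of Bace1 overlap those of Rnf214 on the other strand over 975 bases, or 15.4% of its exon length, and whether the counting used strand is not given in the sources used here; the counts of Rnf214 were 702 to 1027 per mouse.

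Adam10 (ENSMUSG00000054693, chr9:70678997-70780229), the main α-secretase of neurons, had 85.7, 90.9, 85.2 and 93.9 CPM in PS19 and 81.1, 86.8, 84.7 and 91.3 CPM in Adrb1+/m;PS19 mice. The mouse with the least, m671, had the most App, but the 2 genes were not related over the 8 mice. Pearson's r of their log2 CPM was -0.17 (exact permutation p = 0.674) and rho -0.07, and r was 0.54 without m671. The log2 fold change of Adam10 was -0.05 ± 0.06 (SE) (unadjusted p = 0.412, edgeR), and the interval ran from -11.1% to 5.27%. The log2 ratio of Bace1 to Adam10 CPM within a mouse, which sets β- beside α-secretase message, was 0.11, -0.03, 0.04 and -0.01 in the PS19 mice and 0.17, 0.06, 0.15 and -0.03 in the Adrb1+/m;PS19 mice. It differed by 0.05 between the genotype means, less than the SD of either group (0.06 and 0.09), and the groups overlapped.

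Psen2 had the largest difference of the 9 genes and was also the scarcest. Psen2 (ENSMUSG00000010609, chr1:180227004-180263438, minus strand) encodes presenilin 2, a catalytic subunit of the complex. Its CPM was 12.7, 12.6, 12.7 and 16.02 in PS19 mice m677, m668, m665 and m659, and 11.0, 12.9, 11.5 and 11.7 in Adrb1+/m;PS19 mice m671, m661, m660 and m658. PS19 mouse m659 stood above the other 7, and Adrb1+/m;PS19 mouse m661 lay above 3 of the 4 PS19 mice. The means were 13.5 ± 1.67 and 11.8 ± 0.782 CPM (SD, n = 4 each), a log2 fold change of -0.19 ± 0.11 (SE) (unadjusted p = 0.0953, adjusted p = 0.9996, edgeR), and the interval of -25.6% to 2.73% includes 0. Without m659 the log2 fold change was -0.10 (unadjusted p = 0.342, edgeR), and without m661 it was -0.24 (unadjusted p = 0.0618, edgeR). The values no longer overlapped without m661, but m661 was the mouse whose value had overlapped. The share of all genes without overlap when a mouse is left out was not counted. Only 183 to 269 reads were counted per mouse, which gives a counting error of 6.68% against a coefficient of variation of 12.0%.

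Psenen (ENSMUSG00000036835, chr7:30561863-30563627), the small PEN-2 subunit that completes and activates the complex, had 35.6, 31.9, 32.2 and 31.7 CPM in PS19 and 37.1, 29.3, 29.8 and 29.9 CPM in Adrb1+/m;PS19 mice. In each genotype 1 mouse stood above the other 3, m677 and m671. The log2 fold change was -0.06 ± 0.08 (SE) (unadjusted p = 0.475, edgeR). Without m671, the mutant mouse whose value had overlapped, it was -0.15 (unadjusted p = 0.0592, edgeR) and the genotypes did not overlap. As for Psen2, no share of all genes was counted for such a fit. Parts of its exons, 119 and 111 bases, are shared with U2af1l4 and Gm49396 on the other strand, which had at most 7 and 41 counts per mouse.

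Ncstn (ENSMUSG00000003458, chr1:172066013-172082795), the subunit that receives the substrate, had 53.1, 58.7, 54.8 and 60.3 CPM in PS19 and 57.0, 55.0, 58.3 and 57.3 CPM in Adrb1+/m;PS19 mice. The mutant mice lay inside the range of the PS19 mice, and the log2 fold change was 0.01 ± 0.06 (SE) and an interval of -7.98% to 9.45%. Aph1a (ENSMUSG00000015750, chr3:95893969-95898288), a scaffold subunit, had 29.8, 29.6, 27.7 and 30.2 CPM in PS19 and 31.6, 25.3, 27.8 and 30.4 CPM in Adrb1+/m;PS19 mice. Here the PS19 mice lay inside the range of the mutant mice, with a log2 fold change of -0.03 and a standard error of 0.08. Both genes share exon bases with a neighbour on the other strand. For Ncstn these are 195 bases with Copa, which had 3190 to 4957 counts per mouse, more than Ncstn itself, and for Aph1a 445 bases with Car14.

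**Figure D2:**
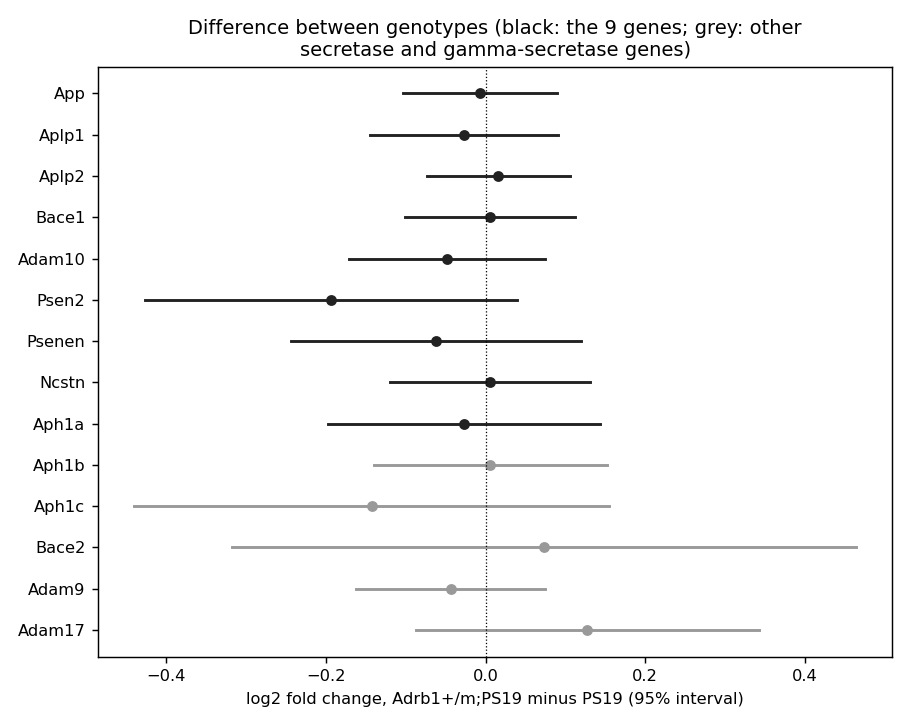
Log2 fold change of each gene, Adrb1+/m;PS19 minus PS19 (x axis), with its 95% interval from edgeR, for the 9 genes (black) and 5 other secretase and γ-secretase genes (grey). Every interval includes 0, and that of Psen2, from -0.43 to 0.04, reaches farthest among the 9 genes.

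None of 5 other secretase and γ-secretase genes, Adam9, Adam17, Bace2, Aph1b and Aph1c, passed the threshold. Adam17, another α-secretase, had a log2 fold change of 0.13 ± 0.10 (standard error), and Bace2, the relative of Bace1 found mostly outside the brain, had 3.79 to 5.93 CPM and a log2 fold change of 0.07 ± 0.18. Aph1b and Aph1c, rodent copies of an APH-1 gene, had log2 fold changes of 0.01 ± 0.07 and -0.14 ± 0.14. Their transcripts share 956 runs of 50 bases, 19.7% and 18.5% of each, so reads could have been split between them and their counts are uncertain.

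Levels between genes were compared as CPM per kilobase of gene length. By the length column of the count table the order of medians was Aplp1 (406.8), App (124.6), Aplp2 (102.4), Psenen (25.0), Adam10 (17.6), Ncstn (14.4), Bace1 (14.3), Aph1a (8.605) and Psen2 (2.92). Each neighbour in this order was higher in 8 of 8 mice, with the exception of Ncstn and Bace1, which were in this order in 4 of 8. The substrates thus exceeded every enzyme, and among the 4 γ-secretase subunits of this set Psenen was highest and Psen2 lowest in every mouse. The length column is the summed length of all annotated exons, which for App is 12996 bases, 4.09 times its principal transcript of 3176 bases. With principal transcript lengths, an alternative added after the files were seen, App had a median of 509.8 and Aplp1 one of 523.8 CPM per kilobase, and Aplp1 was higher in 6 of 8 mice. Ncstn (19.7) then stood above Adam10 (18.8), in 6 of 8 mice, and the other neighbours in the new order held in 8 of 8. The excess of Aplp1 over App therefore depends on the length chosen, and gene counts do not show which of the 11 annotated App transcripts were present.

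**Figure D3:**
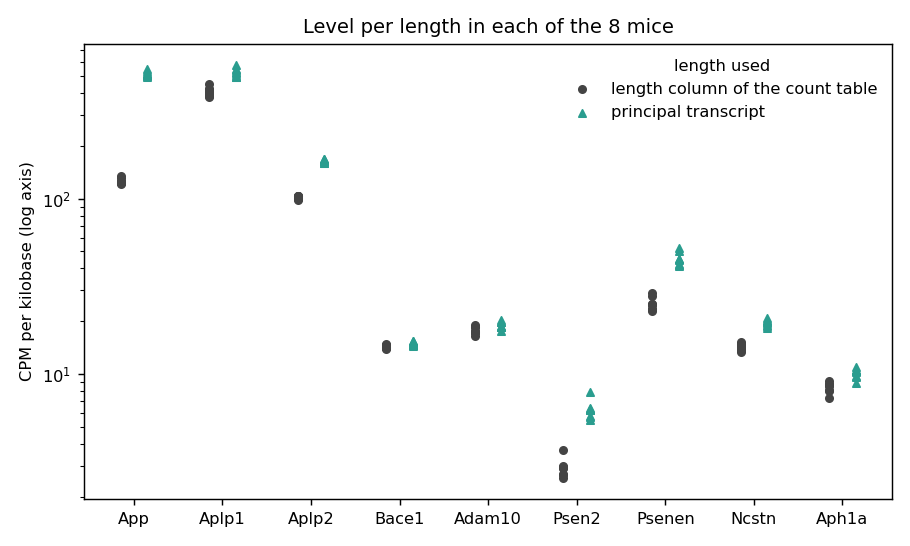
CPM per kilobase on a log axis in each of the 8 mice, with the length column of the count table (dark circles) or the principal GENCODE transcript (green triangles) as the length. App moves from a median of 124.6 to one of 509.8 and meets Aplp1, while Bace1 and Adam10 change little.

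Within a mouse, the log2 ratio of Aplp1 to App CPM lay between -0.48 and -0.36, and that of Aplp2 to App between -1.52 and -1.37, with overlap of the genotypes in both. Among subunits, the log2 ratio of Psen2 to Ncstn was -2.06, -2.22, -2.12 and -1.91 in PS19 and -2.37, -2.09, -2.34 and -2.29 in Adrb1+/m;PS19 mice. The difference of its means was -0.20, with SDs of 0.13 and 0.12, and mouse m661 again lay among the PS19 mice. The ratios of Psenen and of Aph1a to Ncstn had differences of -0.07 and -0.04 between the genotype means, smaller than the SD within either genotype.

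The 9 genes were weakly related to each other across the mice. Of the 36 pairs, 26 had a positive Pearson correlation of log2 CPM over the 8 mice, with a median r of 0.22, and none passed at an adjusted p-value under 0.05 (exact permutation tests over the 36 pairs, for Pearson's r and for Spearman's rho), 4 having an unadjusted p under 0.05 by r and 3 by rho. The closest pair was Aplp1 and Aph1a (r = 0.85, exact permutation p = 0.00756, adjusted p = 0.159; rho = 0.76, p = 0.0368, adjusted p = 0.550), whose r was 0.75 without the 2 mice farthest from the median of Aplp1. App and Aplp1 had an r of 0.84 (exact permutation p = 0.00885, adjusted p = 0.159; rho = 0.74, p = 0.0458, adjusted p = 0.550), which fell to 0.49 without the 2 mice farthest in App. Psen2 and Adam10 had an r of 0.69 (exact permutation p = 0.0458, adjusted p = 0.412; rho = 0.62, p = 0.115, adjusted p = 0.925) and one of -0.09 without the 2 farthest mice in Psen2, m659 and m671. The r of this pair was 0.43 without m659 alone and 0.58 without m671 alone. Leaving out the mice farthest in a gene narrows its range, which can by itself lower r. The remaining pair of the 4, Aplp1 and Psenen, had an r of 0.78 (exact permutation p = 0.0222, adjusted p = 0.267) and a rho of 0.74. Its r fell to 0.40 without the 2 mice farthest in Aplp1 and to 0.56 without m671. With each genotype centred on its mean the r of these 4 pairs, in the order given, was 0.85, 0.84, 0.64 and 0.77. Their unadjusted p was 0.0486, 0.0556, 0.106 and 0.155 (exact permutation within genotype). All these values share the TMM factor of each library. Mouse m659 was above the mean of the 8 mice in 8 of the 9 genes and mouse m661 in 1.

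**Figure D4:**
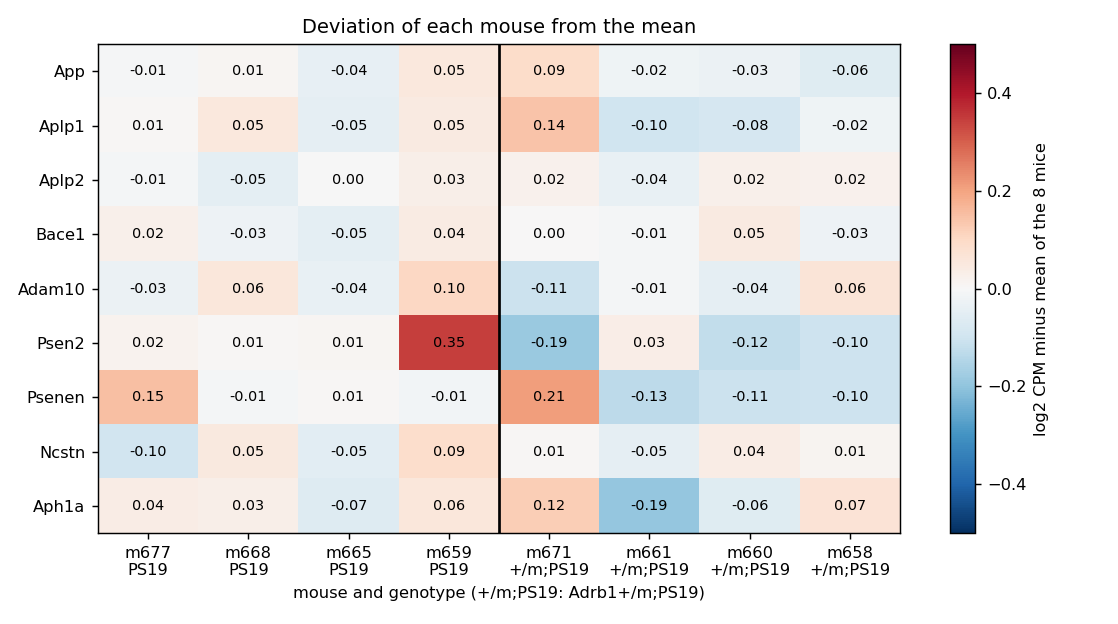
Log2 CPM of each gene in each mouse relative to the mean of that gene; red is above and blue below the mean, and the black line separates PS19 (left) from Adrb1+/m;PS19 mice (right). The deviations of App, Aplp2 and Bace1 reach at most 0.09 after rounding, and that of Psen2 in m659 reaches 0.35.

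Genes whose pattern over the 8 mice was most like that of each member were taken from 10184 protein-coding genes with a mean of at least 10 CPM, by Pearson's r of log2 CPM. They are the highest of many and are given as a description. For App they were Epha6 (r = 0.98), Exosc4 (0.96) and Gm11808 (0.95). For the others they were Arhgef17 for Aplp1, Msantd3 for Aplp2, Eftud2 for Bace1, Sipa1l2 for Adam10, Map4k3 for Psen2, Urm1 for Psenen, Usp12 for Ncstn and Eif3b for Aph1a, with an r between 0.95 and 0.98.

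Genes around APP processing were then counted in 6 lists that hold 83 genes, of which 82 had a row and 80 enough counts to be tested. Timp3 was the 1 gene with an unadjusted p-value under 0.05, with higher expression in Adrb1+/m;PS19 mice, and 0 had lower expression, where 1.42% and 1.37% of all genes were higher and lower. None of the 80 was without overlap between the genotypes, against 2.02% of all genes. The median log2 fold change over the 80 was -0.01. By list, 0 of 6 other secretases and subunits, 1 of 12 partners and inhibitors of ADAM10, 0 of 19 modulators and sorting proteins of BACE1 and γ-secretase, 0 of 11 cytoplasmic adaptors of APP, 0 of 12 genes of amyloid-β degradation and clearance and 0 of 20 other substrates were past it. The medians of these lists lay between -0.04 and 0.04.

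Timp3 (chr10:86300372-86349506), an inhibitor of metalloproteases that include ADAM10 and ADAM17, had 62.5, 57.4, 55.7 and 68.5 CPM in PS19 and 62.5, 71.3, 73.8 and 71.3 CPM in Adrb1+/m;PS19 mice. All but m671 of the mutant mice lay above every PS19 mouse. The log2 fold change was 0.19 ± 0.07 (SE) (unadjusted p = 0.0212, adjusted p = 0.9996, edgeR), and it ranked 191st of the 17195 genes by p. With 1 mouse left out the log2 fold change ran from 0.15 to 0.25. The unadjusted p (edgeR) was 0.0617, 0.0700, 0.0666 and 0.0501 without m668, m665, m660 or m658, and 0.0289, 0.00437, 0.00626 and 0.0465 without m677, m659, m671 or m661, so the call was lost without any of the first 4 and kept without any of the others. It also passed under each of the 8 other alternatives (unadjusted p = 0.00671 to 0.0214).

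The most abundant genes of the lists per kilobase included Adam9 (16.5 CPM per kilobase), Timp2 (91.6), Itm2c (301.4), Apbb1 (96.5) and Apoe (821.4). Itm2c, a BRI family protein that binds APP, had a log2 fold change of 0.06 ± 0.05 (SE), and Apbb1, which encodes the adaptor Fe65, one of -0.06 with a standard error of 0.05. Apoe, the main lipid carrier of the brain, ranged from 1362 to 2166 CPM in PS19 and from 1431 to 2022 CPM in Adrb1+/m;PS19 mice. Its log2 fold change was -0.02 ± 0.14. (SE) The PS19 mice with the highest Apoe, m659 (2166 CPM) and m677 (2047 CPM), also had the highest reactive glia scores of that genotype (0.79 and 0.71), and the part of glia in its spread was not tested.

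**Figure D5:**
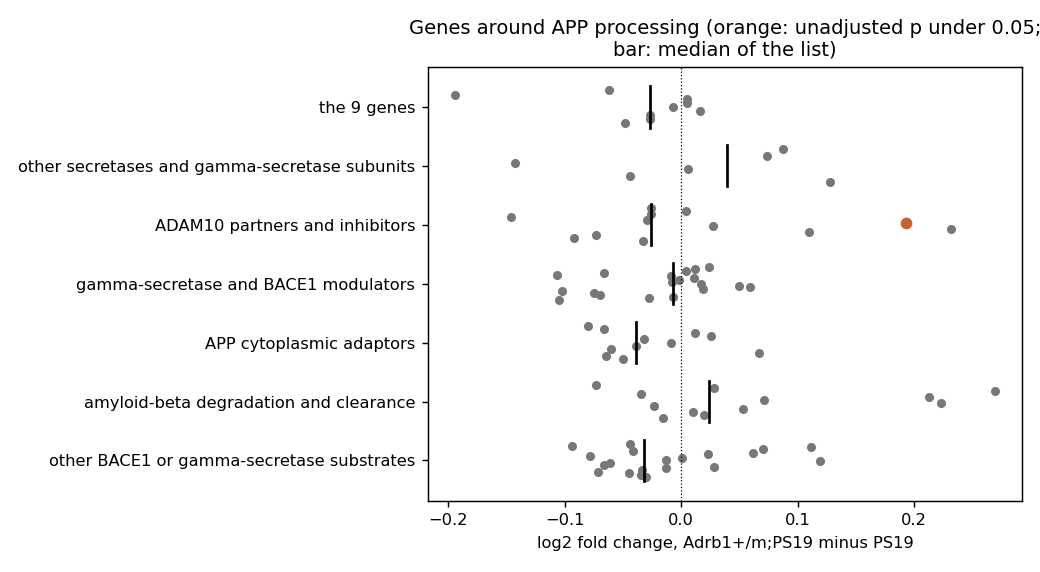
Log2 fold change, Adrb1+/m;PS19 minus PS19 (x axis), of each tested gene of the 9 and of the 6 lists, 1 point per gene, with the list's median as a bar. Timp3, in orange, is the single point with an unadjusted p-value under 0.05.

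What the genes share beyond function was looked for in their promoters. RefSeq promoters of GRCm38.p6, from 250 bases before to 50 after the transcription start, were given for 8 of the 9 genes, with a pair of starts each for Psen2 and Psenen and none for Bace1. GC content was 58.0% to 73.3% in 9 of these 10 promoters and 47.7% at the second start of Psen2, against a median of 52.7% over 32851 promoters. The ratio of observed to expected CpG was 0.40 to 0.90, against a median of 0.38. The TATA box TATAAA, searched on both strands, was in 0 of 10, as against 13.6% of all promoters. The GC box GGGCGG was in 6 of 10 (35.7% of all), and the CCAAT box CCAAT in 4 of 10 (37.4% of all). The cAMP response element TGACGTCA, which binds CREB, a target of β-adrenergic signaling, was in 0 of 10 (1.79% of all), and its half-site TGACG, which the full element contains, in 3 of 10 (20.8% of all), those of Adam10, Ncstn and Psenen. Such matches are letters in a window and say nothing of binding. The 250 bases before the RefSeq start of App (chr16:85173708-85173957, minus strand) are shown as the promoter of the substrate gene, with its 23 CpG in capitals. In the count table App starts earlier on this strand, at 85173766, so the last bases shown lie inside the gene as placed there.
App promoter: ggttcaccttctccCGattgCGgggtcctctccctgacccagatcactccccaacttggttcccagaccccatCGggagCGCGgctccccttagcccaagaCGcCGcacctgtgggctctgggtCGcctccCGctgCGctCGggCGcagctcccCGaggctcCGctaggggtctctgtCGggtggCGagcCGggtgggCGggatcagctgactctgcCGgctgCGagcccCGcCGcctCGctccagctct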

How the data were processed

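Cortex RNA of 8 mice was sequenced by the study as paired-end libraries. Per the submitters' processing notes, the authors aligned reads with HISAT2 2.0.5 to GRCm38 and counted them per Ensembl gene with featureCounts 1.5.0-p3, and they deposited these counts without normalization; the settings for strand and for multiply mapped reads are not given in the sources used here. The gene length column of the deposited table served for levels per kilobase. Genotypes were taken from the labels.

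Genes were filtered with filterByExpr (17195 of 54532 kept), normalized with TMM factors and tested with edgeR 4.0.16 (glmQLFit, glmQLFTest, 2-sided, no covariate) in R 4.3.3. Adjusted p-values are by Benjamini-Hochberg, taken across the 17195 genes. A standard error is the log2 fold change divided by the square root of F, and intervals are at 95%. The call threshold was an unadjusted p of 0.05, as in the study. Log2 CPM used a prior count of 2. In simulated counts for this comparison over 16967 genes, 96.4% of 197 genes changed by a fold of 2 and 4.85% of unchanged genes had an unadjusted p under 0.05, and 95.1% of the intervals held the true value. The counts were drawn from the mean levels and edgeR dispersions of these data, so error rates near the nominal ones were built in. How often smaller changes, such as those of the 9 genes, would be called was not simulated. Of the 9 genes Psen2 had the fewest counts.

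Alternatives were DESeq2 1.42.0, limma-voom (limma 3.58.1), DESeq2's size factors, other count filters, protein-coding genes alone, a surrogate variable from sva 3.50.0, a reactive glia covariate, and each mouse left out. The rule for the 9 genes used names alone, but the 9 genes, the lists and the tests were chosen with earlier results of these data known. Named were the 9 genes, Aph1b, Aph1c, Bace2, Adam9 and Adam17, list genes past the threshold or without overlap, the most abundant gene of each list and the genes most alike in pattern; Rbfox3, Slc17a7, Adrb1 and neighbours in the genome were added as checks. Of the list genes 1 had no row and was not analysed here, and some genes that this rule names are not reported here. Mice are separate animals, but their litters are not in the labels.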

Additional observations from a re-analysis of the deposited data

Results flagged for a closer look

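In 56 groups of 4 mice (CPM of the 9 genes, 6 ratios and 13 marker list scores, each in 2 genotypes), 6 had 1 mouse far from the other 3, where chance gives about 1 in 20. Each is given with the gap to the nearest mouse as a share of the group's range. Psen2 in PS19 mouse m659 was 16.02 CPM, against 12.6 to 12.7 in the other PS19 mice (0.969). Aplp2 in Adrb1+/m;PS19 mouse m661 was 583.1 CPM, against 606.7 to 608.0 (0.946). Psenen was 35.6 CPM in PS19 mouse m677, against 31.7 to 32.2 (0.883), and 37.1 CPM in Adrb1+/m;PS19 mouse m671, against 29.3 to 29.9 (0.921). The log2 ratio of Aph1a to Ncstn was -0.84 in PS19 mouse m677, against -0.999 to -0.984 (0.911). The pan-neuronal marker score was -0.07 in the same mouse, against 0.04 to 0.06 (0.886).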

How the results depend on the processing

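Over 16 alternatives for each of the 9 genes, 133 of 144 log2 fold changes kept their sign and side of the threshold and 0 had an unadjusted p under 0.05, the smallest being 0.0592. The other 11 changed sign, each with 1 mouse left out. Log2 fold changes then ran from -0.042 to 0.011 for App, -0.083 to 0.00043 for Aplp1 and -0.0097 to 0.019 for Bace1. They ran from -0.024 to 0.035 for Ncstn and from -0.075 to 0.031 for Aph1a. Aplp2, Psen2, Psenen and Adam10 kept their sign. With no mouse left out, the edgeR interval of each of the 9 genes included 0, so the direction is not settled for any of them. The number of all genes with an unadjusted p under 0.05 was 481 of 17195. It was 1366 of 33614 with no filter beyond 1 count (66 of them at an adjusted p under 0.05, edgeR) and 431 to 674 with a mouse left out. Among the tested list genes the number was 1 (Timp3), 3 with no filter beyond 1 count (Timp3, Mme and Lpl) and 0 to 3 with a mouse left out. Which genes passed changed with the mouse. They were Cdh2 alone without m665, Mme and Sez6 without m668, and Timp3, Mme and Lpl without m661, for example. The number of the 9 genes without overlap was 0, and 0 to 1 with a mouse left out: Psenen without m671 and Psen2 without m661. In both cases the mouse left out was the mouse whose value had overlapped. The share of all genes without overlap in these fits was not counted, so nothing is read from them. Without division by length, 5 of 8 neighbours kept their order of level. Pairs correlated at an adjusted p under 0.05 numbered 0 under all alternatives run. With each genotype centred on its mean, mice were permuted within their genotype. That leaves too few arrangements for a single pair to pass after adjustment, so the 0 of that alternative says little. No paired analysis was possible because every mouse carries a different number in the labels and no litter is named. Depth limits Psen2 most, with a counting error of 6.68% against 0.588% for App.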
